A study of Mus musculus with 6 samples.

Results

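The 59 genes described here are the members of the 7 solute carrier families that carry most amino acids across mammalian membranes. They are the rows of the expression table whose symbol is Slc1, Slc3, Slc6, Slc7, Slc36, Slc38 or Slc43 followed by an a and a number, 59 of the 24354 rows. Slc6 has 17 of them, Slc7 15, Slc38 11, Slc1 7, Slc36 4, Slc43 3 and Slc3 2. The rule goes by name, so the Slc6 rows include carriers of monoamines and of creatine, and it leaves out amino acid carriers with a letter after the number or in other families. Their expression was measured in mouse choroid plexus (ChP), the epithelium in the brain ventricles that makes cerebrospinal fluid (CSF). Both ages carried FoxJ1:cre together with the bacTRAP (EGFP:L10a) transgene, in which Cre under the Foxj1 promoter switches on a GFP-tagged ribosomal protein, and mRNA bound to the tagged ribosomes was sequenced (TRAP-seq). The 3 adult samples (60 days by the labels) and the 3 samples of embryonic day 16.5 (E16.5) differed in age only, by the labels, and no sample was treated. The paper describes pools of several mice or litters of lateral ventricle ChP and the series description a few mice per age, so p-values measure the spread between the samples as deposited. Foxj1 is also active in ciliated ependymal cells.

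Amino acid transporters fall into a few working types. Sodium-coupled carriers of the Slc1, Slc6 and Slc38 families pull amino acids into cells. Exchangers of the Slc7 family swap intracellular for extracellular amino acids, many of them only when joined to a heavy chain of the Slc3 family. Slc36 members move small amino acids with protons, often out of lysosomes, and Slc43 members are facilitative carriers of large neutral amino acids. In ChP such carriers help to hold most amino acids in CSF below their level in plasma. Uptake also feeds the sensing of amino acids by mTORC1 on the lysosome, and amino acid shortage is sensed by the kinase GCN2, which raises the factor ATF4.

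Levels are FPKM, which are per transcript length, as the authors deposited them. Changes are log2 of FPKM + 1, adult minus E16.5, with the SE of limma's fit over the 11601 genes with a mean FPKM above 1, and adjusted p is by the Benjamini-Hochberg method over all of these. Adding 1 understates the change of genes with low FPKM. The adult libraries were shallower. From the steps between low FPKM values, a single read in 1 kb of transcript was worth 0.112 to 0.324 FPKM in the adult samples and 0.0626 to 0.0812 at E16.5. Among the genes tested, 10.3% to 36.4% were listed at 0 in an adult sample and 3.68% to 4.02% in an E16.5 sample. Adult replicate 3 had the most. Ttr, the carrier of thyroxine that marks ChP epithelium, was listed at 0 in all 3 E16.5 samples and at 20922 FPKM or more in each adult sample, so an exact 0 in the table can be a failed estimate and is given here as listed at 0. The other 9 of 10 ChP epithelium markers were above 0 in all 6 samples. Their summed FPKM without Ttr was 3825, 4817 and 3845 in the adult samples and 2948, 3002 and 2567 at E16.5. Single markers moved in both directions, so this sum does not measure epithelial content. Of the 10, 4 were called higher in adult (Kcnj13, Kl, Prlr and Ttr, whose call rests on the 0 listed at E16.5) and 1, Otx2, higher at E16.5. Over all genes tested these shares were 2.12% and 8.83%. Mean FPKM was 554 in adult ChP and 7.36 at E16.5 for Kl, and 167 and 376 for Otx2.

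At E16.5 a single carrier made up about as much FPKM as all the other members together, and in adult ChP it held at most 2.60% of their sum. This was Slc6a15, a sodium-dependent carrier of branched-chain amino acids and proline. In the fit as reported the glutamine carriers Slc38a3 and Slc38a1 were called higher in adult ChP. The taurine carrier Slc6a6, the cationic amino acid carrier Slc7a1, the cystine and glutamate exchanger Slc7a11 and the neutral amino acid carrier Slc1a4 were called higher at E16.5. None of these calls, nor that of Slc6a15, was made without E16.5 replicate 1, 2 or 3. Of the 59 members 26 passed the filter on mean FPKM and were tested. In the fit over all genes 2 of these were called higher in adult, where 2.12% of all genes tested were, and 5 higher at E16.5, where 8.83% of all genes tested were. The remaining 19 were not called. The median log2 change of the 26 was -0.01 and that of all genes tested was -0.86. Under other settings with all samples the median of the transporters tested ran from -0.73 to 0.84, so its sign depended on the setting. Since a gene can pass the filter through the age at which it is high, these counts describe the list and support nothing beyond it.

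**Figure D1:**
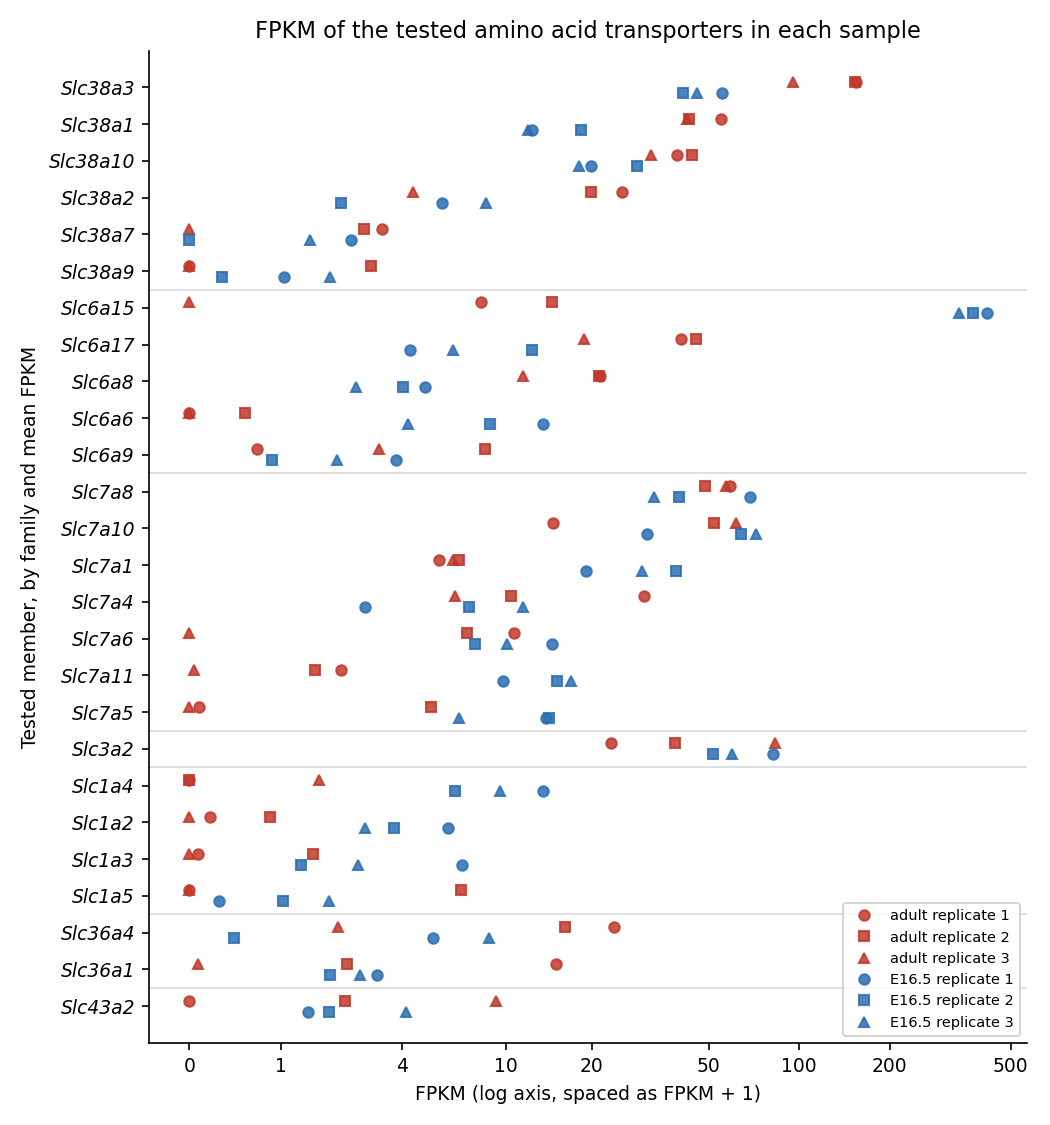
FPKM of the 26 tested members in each sample (red adult, blue E16.5, a symbol for each replicate), on a log axis spaced as FPKM + 1, with families separated by lines and members ordered by mean FPKM. Slc6a15 stands alone at the right at E16.5, with 337 to 418 FPKM, and at 0 to 14.5 FPKM in the adult samples.

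Slc6a15 (ENSMUSG00000019894, chr10:103367783-103419377, plus strand, mm10) was listed at 8.09, 14.5 and 0 FPKM in adult replicates 1, 2 and 3, and at 418, 375 and 337 FPKM in E16.5 replicates 1, 2 and 3. The ages were far apart, and the lowest E16.5 sample was 23.2 times the highest adult sample. By the steps of low values these FPKM stood for about 107 and 441 reads in adult replicates 1 and 2 and for 16428 to 20416 reads in the E16.5 samples. Among all genes in the table Slc6a15 ranked 114th, 134th and 126th by FPKM in the E16.5 samples, and 5226th and 4230th in adult replicates 1 and 2. It held 50.2%, 49.9% and 47.1% of the summed FPKM of the members in the E16.5 samples and at most 2.60% in an adult sample. The log2 change was -6.18 ± 0.93 (SE), with an adjusted p of 0.0110 in limma's fit. It was called in 12 of the 16 other settings that tested it. Leaving out E16.5 replicate 1, 2 or 3 gave log2 changes of -6.10, -6.18 and -6.25 with adjusted p of 0.0596, 0.0599 and 0.0534. Over all 6 fits with 1 sample left out the log2 change ran from -6.96 to -4.99. It was smallest in size without adult replicate 3, in which Slc6a15 was listed at 0, so the size of the change depended on that 0. None of its exon bases overlapped a gene on the other strand, and no 50-base stretch of its transcripts occurred in another gene.

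In the rest of its family, 1 further member was called, also higher at E16.5. Slc6a6, the taurine carrier, was listed at 0, 0.53 and 0 FPKM in the adult samples and at 13.6, 8.72 and 4.21 FPKM at E16.5. All 3 adult samples lay below the E16.5 samples, the nearest pair being 7.97-fold apart. Its log2 change was -2.97 ± 0.67 (adjusted p = 0.0349, limma). The adjusted p was 0.0799 without adult replicate 1 and 0.0651, 0.0840 and 0.0503 without E16.5 replicate 1, 2 or 3. Slc6a17, which loads neutral amino acids into vesicles, had 40.2, 45.4 and 18.9 FPKM in adult ChP and 4.32, 12.4 and 6.37 FPKM at E16.5. Slc6a8, the creatine carrier, had 21.4, 21.2 and 11.5 FPKM in adult ChP and 4.95, 4.06 and 2.53 FPKM at E16.5. In both genes the adult values were all above the E16.5 values, and neither passed the adjusted threshold. Their log2 changes were 2.06 ± 0.56 for Slc6a17 (adjusted p = 0.0565) and 1.96 ± 0.56 for Slc6a8 (adjusted p = 0.0636). Without adult replicate 3, in which both were lowest, the adjusted p was 0.0311 for Slc6a17 and 0.0382 for Slc6a8. Slc6a9, a glycine carrier, had 0.67 to 8.37 FPKM in adult ChP and 0.86 to 3.79 FPKM at E16.5 and overlapped between the ages. Of its exon bases 30.2% lie opposite genes on the other strand, and the sources used here do not state that reads were counted by strand. The other 12 Slc6 rows were not tested. They include Slc6a13, a GABA and taurine carrier, listed at 0 in the adult samples and at 2.09, 2.69 and 0 FPKM at E16.5.

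Summed over its rows, the Slc6 family had 70.3, 90.0 and 33.8 FPKM in the adult samples and 450, 404 and 352 FPKM at E16.5. Without Slc6a15 the order turned, with 62.2, 75.5 and 33.8 FPKM in the adult samples and 32.2, 28.8 and 15.2 FPKM at E16.5. All 59 members summed to 533, 559 and 436 FPKM in the adult samples and 833, 752 and 714 FPKM at E16.5, and without Slc6a15 to 525, 544 and 436 FPKM in adult ChP and 415, 377 and 378 FPKM at E16.5. As deposited, the remaining members thus summed to more in each adult sample than in any E16.5 sample, and the larger sum at E16.5 lay in this carrier. With median-ratio scaling the sums of all 59 members overlapped between the ages (497 to 656 FPKM in adult ChP, 639 to 752 FPKM at E16.5). They did not overlap with the same sum of FPKM, with or without Mir6236, where the adult sums were lower. The order of the remainder held with median-ratio scaling (497 to 646 FPKM in adult ChP, 327 to 375 FPKM at E16.5) but not with each library at the same sum of FPKM, where it was 320 to 502 FPKM in adult ChP and 477 to 626 FPKM at E16.5, nor with that sum taken without Mir6236, where the ages overlapped (434 to 504 FPKM and 361 to 482 FPKM). Mir6236, annotated as a microRNA gene, took 32.7% to 51.7% of the summed FPKM of an adult library and a smaller share of each E16.5 library, 13.3% and 13.6% in replicates 1 and 2 and slightly more in replicate 3. The Slc6 rows without Slc6a15 overlapped between the ages with the same sum of FPKM.

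**Figure D2:**
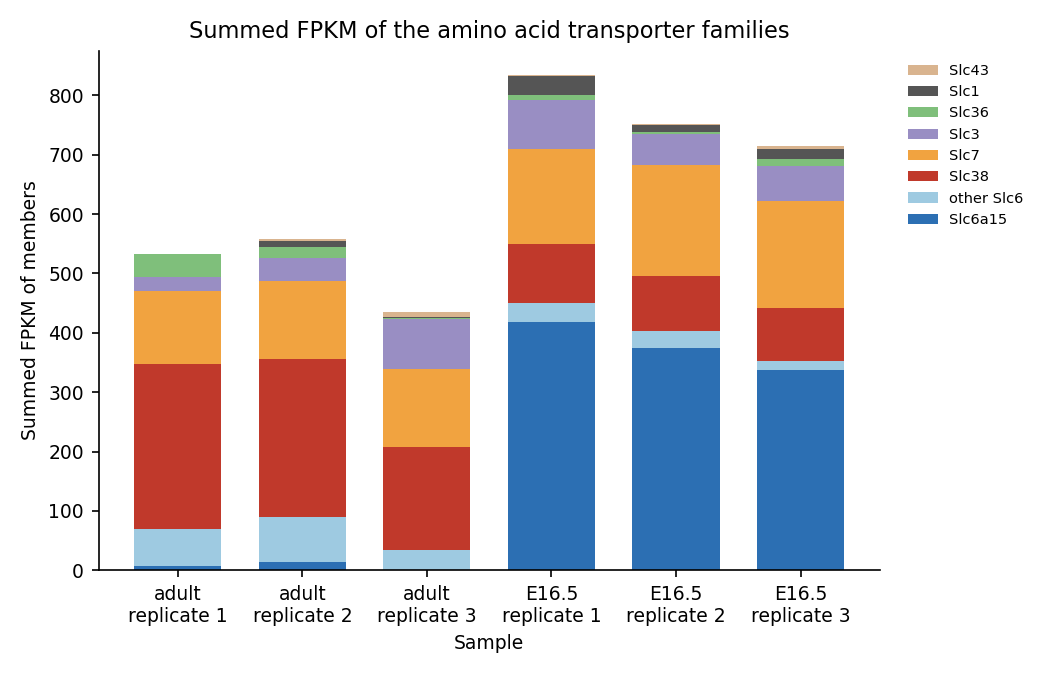
Summed FPKM of the members in each of the 6 samples, stacked by family with Slc6a15 apart from the other Slc6 rows. Slc6a15 fills 47.1% to 50.2% of the E16.5 bars, and Slc38 is the widest band of each adult bar, with 174 to 278 FPKM.

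The Slc38 family, the sodium-coupled carriers of glutamine and other small neutral amino acids, had the highest sum in adult ChP. It summed to 278, 266 and 174 FPKM in the adult samples and to 99.6, 91.5 and 89.6 FPKM at E16.5. It was the only family among the 7 with members called higher in adult, 2 of its 6 tested members. Of all genes tested 2.12% were called in that direction. None of its members was called higher at E16.5. Slc36 had 2 tested members and Slc3 and Slc43 had 1 each. In Slc6, Slc6a17 and Slc6a8 fell short of the threshold (adjusted p = 0.0565 and 0.0636, limma). The median log2 change of the 6 tested Slc38 members was 1.04, and 0.28 to 1.57 under the other scalings. Without the filter on low values it was 0.04 over 10 members. With the same sum of FPKM without Mir6236 in each library the family summed to 267, 239 and 173 FPKM in adult ChP and 98.1, 87.8 and 114 FPKM at E16.5. With Mir6236 in that sum the ages overlapped, at 199, 246 and 128 FPKM in adult ChP and 130, 116 and 148 FPKM at E16.5.

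Slc38a3 (ENSMUSG00000010064, chr9:107650634-107669530, minus strand, mm10), which moves glutamine, asparagine and histidine with sodium against a proton, had 155, 154 and 95.5 FPKM in the adult samples. At E16.5 it had 55.4, 40.8 and 45.8 FPKM. The means were 135 ± 34.0 FPKM in adult ChP and 47.3 ± 7.41 FPKM at E16.5 (SD, n = 3 each), 2.85-fold apart, and the ages did not overlap. Slc38a3 was the most abundant member in each adult sample, where it held 21.9% to 29.1% of the summed FPKM of the members. Its log2 change was 1.47 ± 0.32 (adjusted p = 0.0315, limma). Without adult replicate 1 the adjusted p was 0.0701, and without E16.5 replicate 1, 2 or 3 it was 0.0637, 0.0939 and 0.0840.

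Slc38a1 (ENSMUSG00000023169, chr15:96571418-96642913, minus strand, mm10), a carrier of glutamine and alanine, had 55.0, 43.05 and 42.3 FPKM in adult ChP and 12.3, 18.4 and 12.02 FPKM at E16.5. The means were 46.8 ± 7.12 FPKM and 14.3 ± 3.62 FPKM (SD, n = 3 each), and the lowest adult sample was 2.29 times the highest E16.5 sample. Its log2 change was 1.66 ± 0.37 (adjusted p = 0.0349). Leaving out adult replicate 1 gave an adjusted p of 0.0754, and leaving out an E16.5 replicate 0.0872, 0.0585 and 0.0873. Over the 17 other settings the log2 changes ran from 0.87 to 2.22 for Slc38a1 and from 0.65 to 1.92 for Slc38a3. When each library was scaled to the same sum of FPKM, Mir6236 included, the adjusted p was 0.140 for Slc38a1 and 0.230 for Slc38a3. Of the 50-base stretches of Slc38a1 transcripts, 4.11% occur also in other genes.

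The other Slc38 members were not called. Slc38a10, a little studied carrier of the family, had 39.0, 44.0 and 31.9 FPKM in adult ChP and 19.9, 28.5 and 18.2 FPKM at E16.5. Its ages did not overlap, with the nearest samples 1.12-fold apart, and its log2 change was 0.77 ± 0.37 (adjusted p = 0.193), turning to -0.03 when libraries were scaled to the same sum of FPKM. Slc38a2, a glutamine and alanine carrier whose mRNA is known to rise when amino acids are short, had 25.5, 19.9 and 4.42 FPKM in adult ChP and 5.78, 2.15 and 8.45 FPKM at E16.5, and adult replicate 3 lay among the E16.5 samples. Slc38a7 and Slc38a9, carriers of the lysosome, were at most 3.31 FPKM in any sample. Within a library Slc38a3 was above Slc38a2 throughout, by 2.56 to 4.15 on the log2 scale of FPKM + 1 in adult ChP and by 2.31 to 3.73 at E16.5, so this ratio overlapped between the ages.

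**Figure D3:**
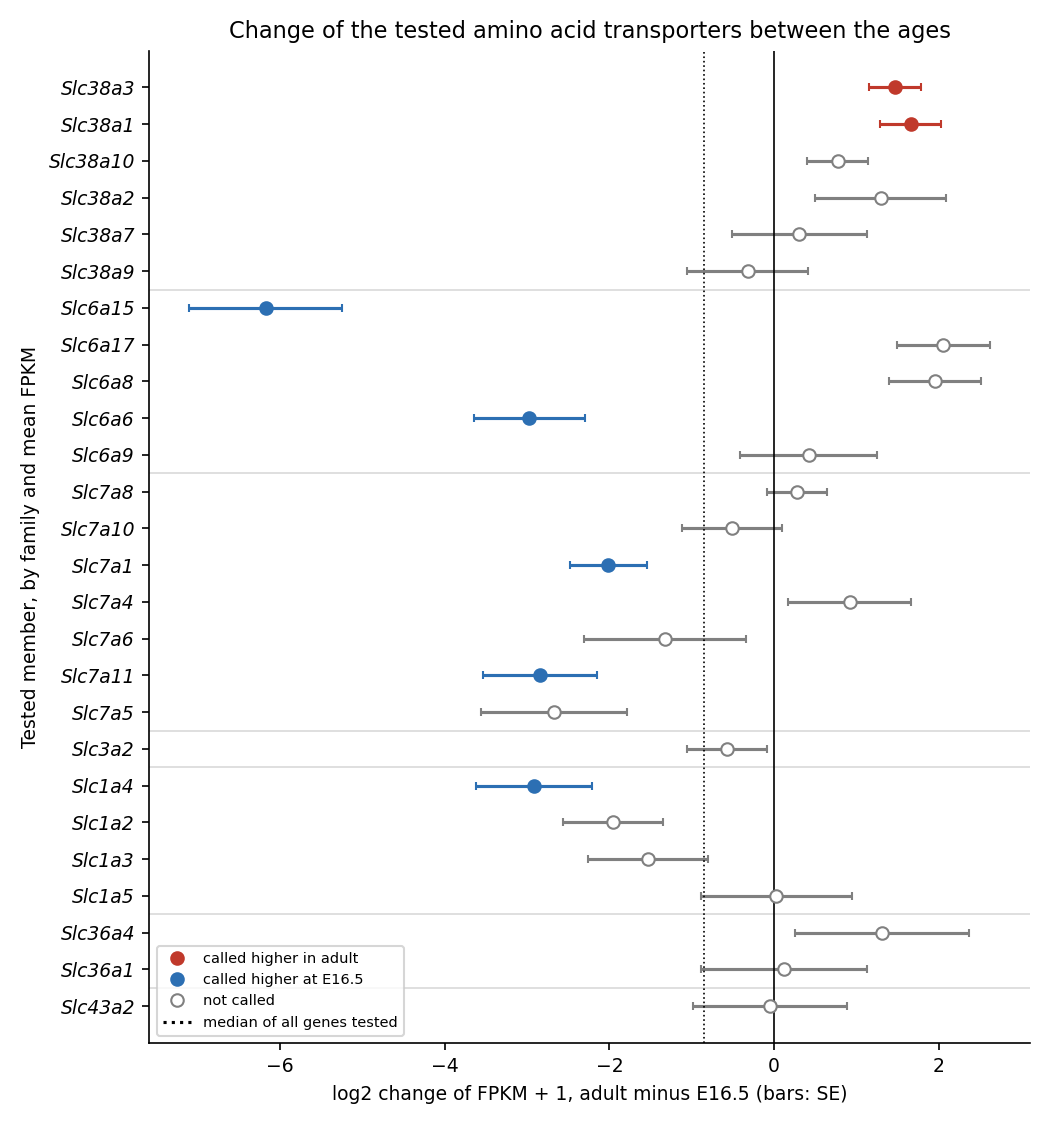
log2 change of each tested member (adult minus E16.5, FPKM + 1) with its SE, filled red where called higher in adult, filled blue where called higher at E16.5 and open where not called. The dotted line marks the median of all genes tested, at -0.86, and 13 members lie on each side of 0.

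The Slc7 family, mostly exchangers, summed to 123, 132 and 132 FPKM in the adult samples and 160, 188 and 180 FPKM at E16.5, overlapping with median-ratio scaling, and 2 of its 7 tested members were called, both higher at E16.5. Slc7a1, which carries arginine and lysine and works without a heavy chain, had 5.62, 6.72 and 6.37 FPKM in adult ChP and 19.2, 38.9 and 29.7 FPKM at E16.5. The means were 6.24 ± 0.56 and 29.3 ± 9.88 FPKM (SD, n = 3 each), 4.69-fold apart with no overlap. Its log2 change was -2.01 ± 0.47 (adjusted p = 0.0378). Without adult replicate 1 the adjusted p was 0.0708, and without an E16.5 replicate 0.0712, 0.147 and 0.128.

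Slc7a11, which takes up cystine in exchange for glutamate, had 2.15, 1.59 and 0.036 FPKM in adult ChP and 9.77, 15.2 and 16.9 FPKM at E16.5. The lowest value stood for about 1.01 reads, and the lowest E16.5 sample was 4.55 times the highest adult sample. Its log2 change was -2.85 ± 0.70 (adjusted p = 0.0427), and it was called in 7 of 17 other settings. The adjusted p was 0.0627 when adult replicate 1 was left out and 0.118, 0.147 and 0.145 when an E16.5 replicate was. Slc7a5 (LAT1), the exchanger that brings in leucine and other large neutral amino acids, had 0.077, 5.21 and 0 FPKM in adult ChP and 13.8, 14.2 and 6.72 FPKM at E16.5. Its ages did not overlap, but adult replicate 2 stood apart from the other adult samples, and the log2 change of -2.67 ± 0.88 did not pass (adjusted p = 0.0901). Without adult replicate 2 the adjusted p was 0.0250.

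The exchangers that were abundant at both ages carry overlapping sets of neutral amino acids. Slc7a8 (LAT2), an exchanger of neutral amino acids, had 59.1, 48.4 and 57.0 FPKM in adult ChP and 68.7, 39.7 and 32.7 FPKM at E16.5. Slc7a10 (Asc-1), an exchanger of glycine, alanine and serine, had 14.7, 52.0 and 61.8 FPKM in adult ChP and 30.8, 64.0 and 72.0 FPKM at E16.5. Both overlapped between the ages. The log2 changes were 0.28 ± 0.37 for Slc7a8 (adjusted p = 0.619) and -0.51 ± 0.61 for Slc7a10 (adjusted p = 0.582), intervals too wide to say that the levels were equal. Of the exon bases of Slc7a10, 17.9% lie opposite Lrp3. Slc7a4, a relative of the cationic carriers, had 30.2, 10.4 and 6.47 FPKM in adult ChP and 2.79, 7.28 and 11.5 FPKM at E16.5, and Slc7a6, an exchanger of cationic for neutral amino acids, had 10.7, 7.16 and 0 FPKM and 14.5, 7.72 and 10.1 FPKM. Neither was called and both overlapped.

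Slc3a2 is the heavy chain that Slc7a5, Slc7a6, Slc7a8, Slc7a10 and Slc7a11 need to reach the cell surface. It had 23.3, 38.5 and 83.2 FPKM in the adult samples and 81.7, 51.7 and 60.0 FPKM at E16.5, overlapping between the ages (log2 change -0.57 ± 0.49, adjusted p = 0.443). Pairs of chains were also compared within each library. The ratio of Slc7a8 to Slc7a5, as log2 of FPKM + 1 within a library, was 5.80, 2.99 and 5.86 in adult ChP and 2.23, 1.42 and 2.13 at E16.5. In adult replicates 1 and 3, where Slc7a5 was near or at 0, this value is set mostly by the added 1. The ratio of Slc7a11 to Slc3a2 was -2.95, -3.93 and -6.34 in adult ChP and -2.94, -1.70 and -1.76 at E16.5, with adult replicate 1 and E16.5 replicate 1 nearly level. In adult replicate 3 Slc7a11 had 0.036 FPKM, so the value there is set mostly by the added 1. The ratios of Slc7a5 to Slc3a2 and of Slc7a8 to Slc3a2 overlapped between the ages. A ratio within a library does not depend on the scaling between libraries, apart from the added 1, and with 3 samples against 3 no exact permutation test can go below 0.1. The other heavy chain, Slc3a1, was listed at values that round to 0 in all samples.

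The Slc1 family summed to 0.23, 9.19 and 1.67 FPKM in the adult samples and 32.1, 12.5 and 17.3 FPKM at E16.5. Slc1a4 (ASCT1), a sodium-dependent exchanger of alanine, serine and cysteine, was listed at 0, 0 and 1.67 FPKM in adult ChP and at 13.5, 6.48 and 9.48 FPKM at E16.5. The lowest E16.5 sample was 3.89 times the highest adult sample, and the log2 change was -2.91 ± 0.70 (adjusted p = 0.0415). It was called in 5 of the 16 other settings that tested it. Without adult replicate 1 or 2 the adjusted p was 0.0923 and 0.0580, and without an E16.5 replicate 0.111, 0.0921 and 0.106. Slc1a5 (ASCT2), which carries glutamine beside the same substrates, was listed at 0, 6.79 and 0 FPKM in adult ChP and at 0.25, 1.04 and 1.88 FPKM at E16.5. The ratio of Slc1a4 to Slc1a5, as log2 of FPKM + 1, was 3.54, 1.88 and 1.86 in the E16.5 samples, and no ratio is given for adult ChP, where 1 gene of the pair or both were listed at 0 in each sample. The glutamate carriers Slc1a2 and Slc1a3, which are strongest in astrocytes, were low. Slc1a2 was listed at 0.17, 0.85 and 0 FPKM in adult ChP and at 6.08, 3.70 and 2.78 FPKM at E16.5 with no overlap (log2 change -1.96 ± 0.61, adjusted p = 0.0793). Slc1a3 was listed at 0.064, 1.55 and 0 FPKM in adult ChP and at 6.88, 1.33 and 2.57 FPKM at E16.5 and overlapped. E16.5 replicate 1 was highest in both, and it also had the highest summed FPKM of neuron and progenitor markers, 148 FPKM against 41.6 and 49.2 in the other E16.5 samples; the part of these markers in the result was not tested.

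The proton-coupled and facilitative families were small, with Slc36 at 2.14 to 38.9 FPKM in sum in an adult sample and 2.29 to 11.3 FPKM at E16.5, and Slc43 at 0 to 9.22 FPKM and 1.45 to 4.57 FPKM. Slc36a4, a carrier of proline and tryptophan, had 23.8, 16.1 and 2.07 FPKM in adult ChP and 5.33, 0.40 and 8.64 FPKM at E16.5. Slc36a1, a lysosomal carrier of small neutral amino acids, had 15.04, 2.29 and 0.064 FPKM in adult ChP and 3.14, 1.89 and 2.63 FPKM at E16.5. Slc43a2 (LAT4) was listed at 0, 2.24 and 9.22 FPKM in adult ChP and at 1.45, 1.88 and 4.14 FPKM at E16.5. All 3 overlapped between the ages, with adjusted p of 0.421 for Slc36a4, 0.943 for Slc36a1 and 0.978 for Slc43a2, and the spread between adult samples was wider than that at E16.5 in each.

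Counted over the 26 tested members, 5 had all adult values above the E16.5 values (7.39% of all genes tested had) and 7 had them below (31.0% of all genes tested had), and 14 overlapped. Of all genes tested 38.4% did not overlap. The 5 were Slc38a3, Slc38a1, Slc38a10, Slc6a17 and Slc6a8. The 7 were Slc6a15, Slc6a6, Slc7a1, Slc7a11, Slc7a5, Slc1a4 and Slc1a2. Across the 26, Pearson's r of log2(FPKM + 1) was 0.721 to 0.855 between adult samples, 0.893 to 0.918 between E16.5 samples and 0.377 to 0.536 between an adult and an E16.5 sample. These correlations are across genes of the same libraries and describe how alike the profiles were.

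Of the 33 members not tested, 17 were listed at 0 in all 6 samples. They were Slc1a6, Slc6a2, Slc6a5, Slc6a11, Slc6a12, Slc6a14, Slc6a18, Slc6a19, Slc7a3, Slc7a9, Slc7a12, Slc7a13, Slc7a15, Slc36a2, Slc36a3, Slc38a5 and Slc43a1. The other 16 had a value somewhere, the highest being 5.36 FPKM for Slc1a1, a glutamate and cysteine carrier, in E16.5 replicate 1. Slc1a1 was listed at 0 in the adult samples and at 0 and 0.39 FPKM in the other E16.5 samples.

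The calls of single members rested on small margins. In the fit as reported 7 members were called, and without E16.5 replicate 1, 2 or 3 none was called in limma's fit. Then 6 or 7 members higher at E16.5 and 4 or 5 higher in adult had an unadjusted p under 0.05. In the fit as reported 7 and 4 members had, and 3626 of the 11601 genes tested in either direction, so these counts describe the list only. Without adult replicate 1 only Slc6a15 was called, and without adult replicate 3, the shallowest library, 9 were, Slc6a17 and Slc6a8 beside the 7. Quantile normalization, which brought the median log2 change of all genes tested from -0.86 to 0.01, called Slc38a1, Slc38a3, Slc6a17 and Slc6a8 higher in adult and Slc6a15 alone higher at E16.5, with Slc7a1 at -1.51 (adjusted p = 0.1001) and Slc6a6 at -1.62 (adjusted p = 0.159). Scaling to the same sum of FPKM, which moved that median to -1.48, called 7 members higher at E16.5 and none higher in adult in limma's fit, where no member higher in adult had an unadjusted p under 0.05.

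**Figure D4:**
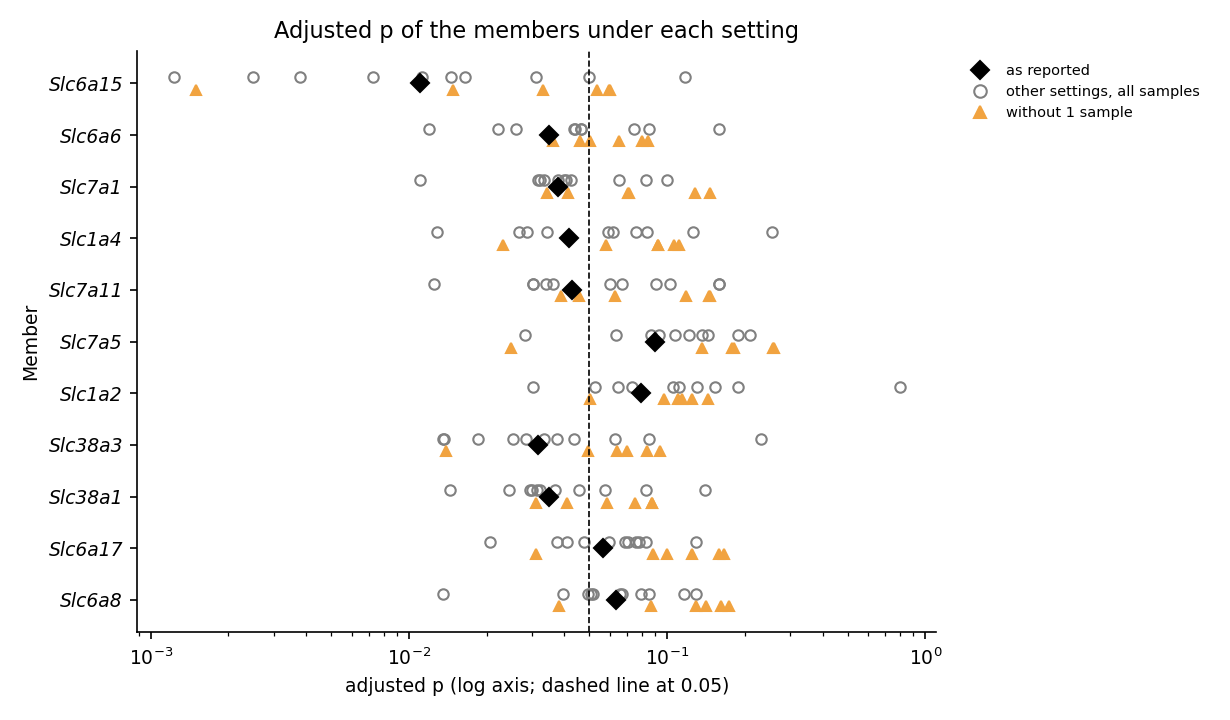
Adjusted p (log axis, dashed line at 0.05) of the 7 called members and of Slc7a5, Slc1a2, Slc6a17 and Slc6a8, which did not overlap between the ages but were not called, as reported (diamonds), under other settings with all samples (circles) and without 1 sample (triangles). Slc6a15 lies below 0.05 in most settings, and at 0.0534 to 0.0599 without an E16.5 sample.

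The start regions of 3 of the 7 called members, Slc7a11, Slc1a4 and Slc7a1, could be read from RefSeq promoter windows of GRCm38.p6, each from 250 bases before to 50 after the start. Slc7a11 and Slc1a4 are shown because their windows hold TGATGNAA on either strand, the element that dimers of C/EBP and ATF factors, ATF4 among them, are known to bind in genes of the amino acid response. The 250 bases before the start of Slc7a11 (chr3:50443614-50443863, minus strand) and 30 bases over the start of Slc1a4 (chr11:20332699-20332728, minus strand) read as follows, with the matches in capitals.
Slc7a11: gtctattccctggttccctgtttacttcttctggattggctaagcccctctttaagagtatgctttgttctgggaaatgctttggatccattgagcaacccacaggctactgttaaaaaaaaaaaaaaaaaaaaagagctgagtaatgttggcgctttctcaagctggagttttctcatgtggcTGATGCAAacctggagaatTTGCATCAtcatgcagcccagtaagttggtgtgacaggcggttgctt
Slc1a4: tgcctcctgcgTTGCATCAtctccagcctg
Slc7a11 holds a match on each strand, 66 and 47 bases before the start, and Slc1a4 a single match on the other strand that begins 4 bases before the start. Among all 32851 windows 3.97% held the element. Of the 62 windows of 41 members, 4 windows of 3 members did, the third being Slc7a7, an exchanger of cationic for neutral amino acids that was not tested. Both windows of Slc7a1 lacked these letters. A match describes the letters only.

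Genes around the transporters were described from lists chosen with earlier results of these data known. For these lists and the cell type markers only the fit as reported is given. How far their calls depend on the setting or on single samples was not examined. Of 12 tested amino acid transporters outside the symbol rule, none was called higher in adult, with 0 at an unadjusted p under 0.05. In the other direction 1 was called higher at E16.5, where 8.83% of all genes tested were. This was Slc16a10, a carrier of aromatic amino acids, listed at 0 in all 3 adult samples and at 17.0, 10.4 and 18.4 FPKM at E16.5 (adjusted p = 0.0118). The median log2 change of this list was -0.05, beside -0.86 for all genes tested. Slc25a12, the mitochondrial aspartate and glutamate exchanger, was the most abundant of them at both ages, with 58.5, 109 and 115 FPKM in adult ChP and 93.2, 114 and 110 FPKM at E16.5, and overlapped. It is named for its level, after its values were seen.

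In the list of amino acid sensing upstream of mTORC1, 4 of 31 tested genes were called higher at E16.5, where 8.83% of all genes tested were, and none higher in adult in limma's fit, where 1 had an unadjusted p under 0.05 in that direction. The median log2 change was -0.69, beside -0.86 for all genes tested. Of the 5 subunits of the Ragulator, the complex that holds the Rag GTPases on the lysosome, 3 were among the 4 called. The other subunits were Lamtor1, which overlapped between the ages (adjusted p = 0.677), and Lamtor3, which did not overlap and did not pass (adjusted p = 0.0633). Lamtor2 had 22.2, 38.3 and 22.2 FPKM in adult ChP and 217, 176 and 183 FPKM at E16.5 (log2 change -2.80 ± 0.32, adjusted p = 0.00506). Lamtor4 was listed at 0, 1.17 and 0 FPKM in adult ChP and at 105, 104 and 49.5 FPKM at E16.5 (-6.00 ± 0.61, adjusted p = 0.00349). Lamtor5 was listed at 0, 10.9 and 0.48 FPKM in adult ChP and at 66.9, 36.6 and 70.1 FPKM at E16.5 (-4.44 ± 0.95, adjusted p = 0.0307). The fourth was Sec13, which also serves the COPII coat and the nuclear pore, with 42.5, 28.5 and 7.73 FPKM in adult ChP and 151, 155 and 161 FPKM at E16.5 (-2.81 ± 0.57, adjusted p = 0.0274). In all 4 the adult values were below all E16.5 values. Over the list 11 tested genes had all adult values below and 1, Rragd, had them above (adjusted p = 0.0584, limma). Over all genes tested these shares were 31.0% and 7.39%. Mtor itself had 22.8, 21.1 and 26.2 FPKM in adult ChP and 12.9, 8.49 and 22.4 FPKM at E16.5, was not called and is named here after its values were seen.

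In the list of the response through GCN2 and ATF4, 1 of 15 tested genes was called higher at E16.5, where 8.83% of all genes tested were. None was called higher in adult in limma's fit. At an unadjusted p under 0.05 these were 6 and 0, beside 3626 of the 11601 genes tested in either direction. The gene called was Phgdh, the first enzyme of serine synthesis, listed at 0, 9.87 and 1.96 FPKM in adult ChP and at 34.1, 41.9 and 34.2 FPKM at E16.5 (log2 change -3.56 ± 0.86, adjusted p = 0.0416). The list summed to 106, 128 and 130 FPKM in the adult samples and 305, 321 and 287 FPKM at E16.5. Its median log2 change was -1.79, beside -0.86 for all genes tested, and a difference of the list from all genes was not tested. Of the proteins that accompany members to the membrane, Arl6ip5 alone was tested and was not called.

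**Figure D5:**
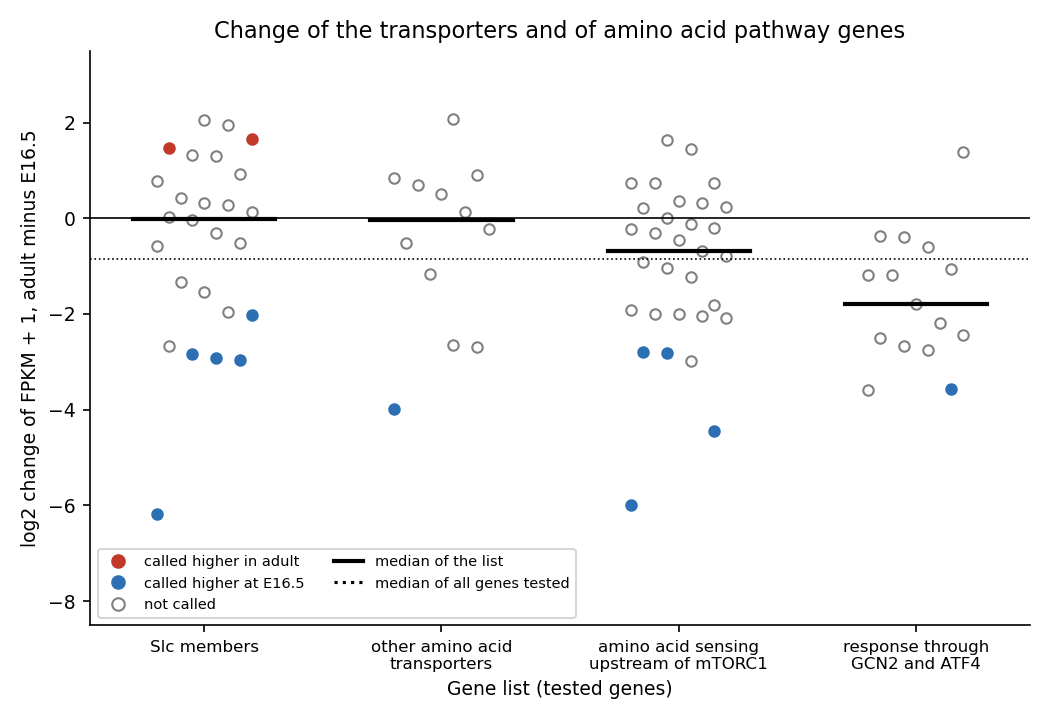
log2 change (adult minus E16.5, FPKM + 1) of the tested genes of 4 lists, 26 transporters of the 7 families, 12 other amino acid transporters, 31 genes of amino acid sensing and 15 genes of the response through GCN2 and ATF4. Bars mark the medians, at -0.01, -0.05, -0.69 and -1.79, and the dotted line the median of all genes tested, at -0.86.

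Several lists of cell type markers, and the list of cell cycle genes, also differed between the ages. In bulk ribosome-bound RNA, fewer cells of a type and less RNA per cell cannot be told apart. Genes of ependyma and motile cilia summed to 55.6 to 69.8 FPKM in the adult samples and 363 to 625 FPKM at E16.5. Of the 4 tested genes 3 were called higher at E16.5, Mia, Rarres2 and Foxj1, and the other, Dnah11, overlapped. Foxj1 had 37.9, 45.8 and 62.4 FPKM in adult ChP and 208, 198 and 154 FPKM at E16.5. The paper targeted ChP epithelial cells with FoxJ1:cre, so Foxj1 does not mark other cells alone. Of the 2 genes of this list not tested, Ccdc153 was above 0 in E16.5 replicate 1 alone and Tmem212 in adult replicate 2 alone. Red blood cell genes summed to at most 6.49 FPKM in an adult sample and 56.7 to 388 FPKM at E16.5 (2 of 4 called higher at E16.5), with Hba-a2, Hbb-bs and Hbb-b2 at 0 in the adult samples and Alas2 overlapping. Neuron and progenitor markers summed to 1.27 to 14.4 FPKM in adult ChP and 41.6 to 148 FPKM at E16.5 (1 of 6 called), and mesenchymal markers to 13.3 to 22.0 FPKM and 58.6 to 69.4 FPKM (1 of 6 called). Cell cycle genes summed to 0 to 31.1 FPKM in adult ChP and 42.8 to 77.5 FPKM at E16.5 (1 of 4 called). Pcna and Cdk1, the most abundant of them, overlapped between the ages, and the other 4, Mki67, Top2a, Ccnb1 and Birc5, were at 0 in the adult samples, Ccnb1 at E16.5 too. All of these calls were higher at E16.5, where 8.83% of all genes tested were called. The sums of endothelial markers (30.8 to 75.6 FPKM against 40.8 to 84.8 FPKM) and of macrophage markers (0.069 to 6.82 FPKM against 0.58 to 8.48 FPKM) overlapped. Slco1a4 was the highest endothelial marker in every sample and overlapped, with 28.7, 34.8 and 75.1 FPKM in adult ChP and 62.0, 28.5 and 44.2 FPKM at E16.5. It made up most of the endothelial sum, which therefore does not measure endothelial content. Of the 4 tested endothelial markers, Kdr alone did not overlap. It had 2.04, 7.75 and 0.44 FPKM in adult ChP and 16.0, 12.3 and 36.7 FPKM at E16.5 (adjusted p = 0.0809, limma). Markers of oligodendrocytes and astrocytes summed to 10.7, 20.4 and 97.5 FPKM in adult ChP and 13.6 to 23.2 FPKM at E16.5, so adult replicate 3 stood apart, and Slc1a2 and Slc1a3 were listed at 0 in it. None of these last 3 lists had a gene called. The part of such cells in the members called higher at E16.5 was not tested.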

How the data were processed

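TRAP-seq samples (6 in all), 3 adult and 3 E16.5, were grouped by their labels. The authors aligned 50-bp reads to mm10 with STAR and derived gene FPKM with Cuffquant from Cufflinks; the methods name an mm10 gene annotation for a step with htseq-count, and its release, or the annotation given to Cuffquant, is not given in the sources used here. The deposited FPKM table (24354 rows, 27 of them date-like names) was used as it stands. Depth is unknown from FPKM and was estimated from steps among low values in 2523 genes with a single transcript, at the transcript length minus 200 bases, where 60.6% to 84.4% of low values lay within 0.1 of a whole read (chance 20.0%). Read steps cover counting error only, and reads carried no molecular identifiers.

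Log2(FPKM + 1) of the 11601 genes with a mean FPKM above 1 was compared by limma 3.58.1 (trend, no covariates) in R 4.3.3, two-sided, with a Benjamini-Hochberg threshold of 0.05. The script was tested on simulated data. No count model was used, since the deposited values are not counts. Coordinates and overlaps are from GENCODE M21 (mm10), in which 59 of 59 symbols matched. Alternatives were pseudocounts of 0.1 and 0.01, no filter, genes above 0 in all samples, 4 other scalings, limma without a trend or with array weights, the replicate number as a block, and each sample left out. Gene members and lists were chosen with earlier results of these data known. Named by rule were all called members, the 3 most abundant tested members of each family, the 5 largest changes without overlap or call, the members of fixed ratio pairs, members at 0 throughout, called genes of the pathway lists and the 2 most abundant markers of each list; not every such marker is named.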

Additional observations from a re-analysis of the deposited data

How the results depend on the processing

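Of all genes tested, 246 were called higher in adult as reported, against 119 with the same sum of FPKM, 569 with quantile normalization, 158 without a trend, and 90 to 338 when 1 sample was left out. Higher at E16.5 were 1024, against 451 with genes above 0 in all samples, 661 with median-ratio scaling, 3238 with the same sum of FPKM, 504 with quantile normalization, and 349 to 1704 when 1 sample was left out. Transporters called higher in adult were 2 as reported, 4 with genes above 0 in all samples, with quantile normalization or with array weights, 0 in limma with the same sum of FPKM or without a trend (0 and 4 at an unadjusted p under 0.05), and 0 to 4 when 1 sample was left out. Transporters called higher at E16.5 were 5 as reported, 3 with a pseudocount of 0.1 or no filter, 1 with a pseudocount of 0.01, 2 with genes above 0 in all samples or median-ratio scaling, 1 with quantile normalization, and 0 to 5 when 1 sample was left out. The median log2 change of the transporters, -0.01 as reported, was 0.84 with quantile normalization, 0.77 with genes above 0 in all samples, -0.56 and -0.73 with pseudocounts of 0.1 and 0.01, -0.55 with the same sum of FPKM, and -0.35 to 0.13 when 1 sample was left out.

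The labels number the replicates at each age, and nothing pairs them. Deviations from the group means of same-numbered samples correlated at 0.000895, 0.0439 and 0.0150 across genes, and not every sample correlated best with its own number. With the replicate number as a block, 112 genes were called in the adult direction and 452 in the other, 0 transporters were called higher in adult (4 at an unadjusted p under 0.05) and 1, Slc6a15, higher at E16.5. The block cannot move a log2 change in this balanced pairing.

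Transporters that were not called could turn in sign. Slc1a5 was at -1.17 with a pseudocount of 0.1, -3.19 with 0.01, -0.27 with the same sum of FPKM, -0.084 with that sum without Mir6236, and -0.96 to 0.52 with 1 sample left out. Slc36a1 was at -0.52, -0.87, -0.42 and -0.00062 in these 4 settings and -0.91 to 1.05 with 1 sample left out. The same sum of FPKM put Slc38a10 at -0.027 and Slc7a8 at -0.53. Slc43a2 was at 0.13 with median-ratio scaling, 0.99 with quantile normalization and -0.88 to 0.80 with 1 sample left out, and Slc7a10 at -0.88 to 0.12 with 1 sample left out. The cause was not tested. Less can be said of members below a few FPKM in the adult libraries, which were shallower and listed more tested genes at 0. Such a 0 may be a failed estimate, and the part of depth in it was not tested.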
